A study of Solanum lycopersicum with 12 samples.

Results

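The probe sets described here are those with a higher signal in tomato PI365967 than in tomato Moneymaker under both conditions of a salt experiment. A probe set is a group of short probes on an Affymetrix array that reports 1 transcript or a few related ones. Membership was set by the measured values themselves. The mean log2 signal of PI365967 had to exceed that of Moneymaker by at least 1.5 (2.83-fold) both under salt and without it. Of 10101 probe sets analysed, 54 met this, or 0.535%. The same size of difference in the opposite direction held for 148 probe sets.

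The study measured gene expression in whole tomato plants on 12 arrays. There were 4 groups: PI365967 after 5 h with 200 mM NaCl, PI365967 after 5 h with 0 mM NaCl, Moneymaker after 5 h with 200 mM NaCl, and Moneymaker after 5 h with 0 mM NaCl. Each group had 3 arrays, and each array took RNA pooled from 3 plants that had 6 leaves and stood in aerated quarter-strength Hoagland nutrient solution. The labels name Solanum lycopersicum as the organism of every sample.

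Moneymaker is a cultivated tomato, and PI365967 is known as a salt-tolerant wild accession of the related species Solanum pimpinellifolium. Plants under salt take up sodium, close stomata and accumulate compatible solutes such as proline, and they induce chaperones and other protective proteins. A transcript that is abundant in a tolerant accession before any stress is often called constitutively high, as opposed to one that salt induces. A poor fit of transcripts to the probes lowers a signal, so a poorer fit in PI365967 would make its signals lower, not higher. How well the transcripts of either accession fit the probes was not tested here.

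Because the members were chosen by the genotype differences, these differences are given with their standard errors (SE, 3 arrays per group) as a description, without p-values. The effect of salt averaged over the 2 genotypes did not enter the choice and was tested. Signals are log2(intensity + 16) after quantile normalization, a scale on which folds of dim probe sets are understated. Array medians before normalization ran from 332.8 to 633.2 intensity units, and arrays of 1 group correlated with each other at a Pearson's r of 0.991 to 0.995, computed across probe sets. The annotation names the gene of 9 members (16.7%, against 9.00% of all probe sets): 6 by a gene name and 3 by a locus number. The other 45 are given by their identifiers, and no function is stated for them.

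**Figure D1:**
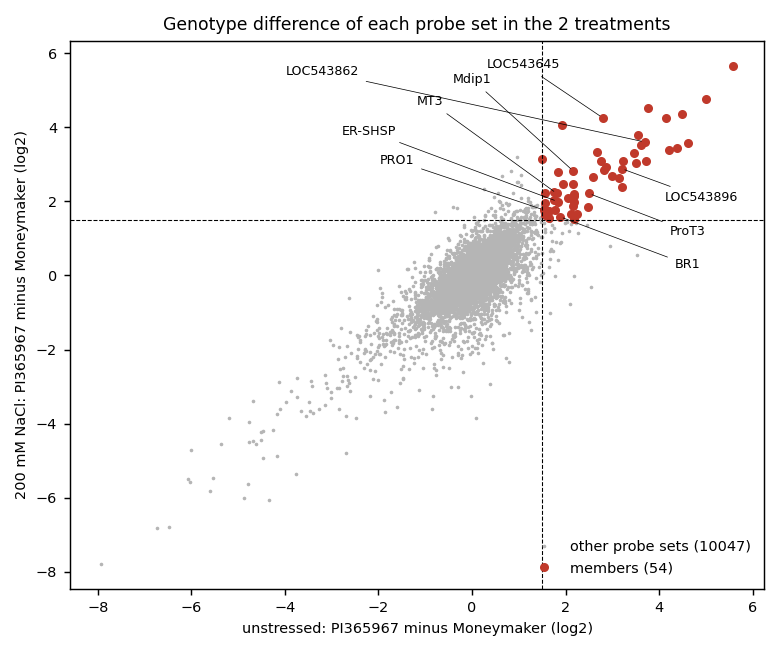
Each point is 1 probe set, with the log2 difference PI365967 minus Moneymaker in unstressed plants on the horizontal axis and under 200 mM NaCl on the vertical axis. Dashed lines mark the threshold of 1.5, red points are the 54 members, thin lines lead to the 9 annotated ones, and the smaller of a member's 2 differences ran from 1.51 to 5.57.

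The smaller of the 2 genotype differences of a member had a median of 2.17, or 4.49-fold. It was at least 2 for 31 members, at least 3 for 15 and at least 4 for 4. The median difference over members was 2.65 under salt and 2.36 unstressed, beside 0.03 and 0.02 over all probe sets. In 11 members PI365967 was at least 10-fold higher in both treatments. In 50 of 54 members all 6 PI365967 arrays lay above all 6 Moneymaker arrays, a separation found in 6.86% of all probe sets and largely fixed by the rule. Another 84 probe sets passed the threshold only under salt and 34 only unstressed.

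The probe set with the largest difference was Les.1842.1.S1_at. Its log2 signals were 9.85, 9.59 and 9.69 in PI365967 under salt and 9.76, 9.70 and 9.50 in unstressed PI365967, against 4.05, 4.02 and 4.07 in Moneymaker under salt and 4.08, 4.09 and 4.06 in unstressed Moneymaker. As deposited, its intensities lay between 575 and 992 in PI365967 and between 0.225 and 1.01 in Moneymaker, so it gave a clear signal in one genotype and next to none in the other. The difference was 5.66 ± 0.09 under salt and 5.57 ± 0.09 unstressed (50.6-fold and 47.6-fold), and its mean salt effect of 0.01 ± 0.06 was not called (limma adjusted p = 0.857), unlike the 0.26 of the authors' second values (adjusted p = 0.0179).

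Les.5230.1.S1_at came next, with 9.22, 9.13 and 9.60 in PI365967 under salt and 9.72, 9.64 and 9.60 in unstressed PI365967, against 4.66, 4.53 and 4.49 in Moneymaker under salt and 4.48, 4.51 and 4.99 in unstressed Moneymaker. The differences were 4.76 ± 0.15 and 4.99 ± 0.15 for salt and unstressed plants. The groups did not overlap. A second probe set with the same cluster number, Les.5230.1.S1_s_at, which can take signal from related transcripts, differed by only 0.20 ± 0.08 under salt and 0.18 ± 0.08 unstressed.

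Les.620.1.A1_at had 10.56, 10.64 and 10.43 in PI365967 under salt and 10.60, 10.52 and 10.56 in unstressed PI365967, against 6.41, 6.20 and 5.96 in Moneymaker under salt and 5.88, 6.21 and 6.13 in unstressed Moneymaker. Its differences were 4.35 ± 0.12 under salt and 4.49 ± 0.12 unstressed. LesAffx.14185.1.S1_at differed by 4.25 ± 0.27 and 4.15 ± 0.27. Its PI365967 arrays lay at 10.99 to 11.73 and its Moneymaker arrays at 6.82 to 8.13, with 1 unstressed Moneymaker array at the upper end.

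Les.2469.1.S1_at combined a large genotype difference with a salt response. Its signals were 11.28, 10.56 and 10.87 in PI365967 under salt and 11.82, 12.23 and 11.45 in unstressed PI365967, against 6.09, 6.50 and 6.61 in Moneymaker under salt and 8.39, 8.35 and 7.49 in unstressed Moneymaker. Within each genotype every salt array lay below every unstressed array. PI365967 was higher by 4.51 ± 0.28 under salt and by 3.75 ± 0.28 unstressed, and the mean salt effect was −1.30 ± 0.20 (limma adjusted p = 0.000122).

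LesAffx.66316.1.S1_at also fell under salt on average (−0.52 ± 0.10, limma adjusted p = 0.000618), with effects of −1.04 ± 0.14 in PI365967 and −0.01 ± 0.14 in Moneymaker. Its arrays read 7.76, 7.86 and 8.04 in PI365967 under salt and 8.94, 9.13 and 8.73 in unstressed PI365967, against 4.39, 4.37 and 4.20 in Moneymaker under salt and 4.39, 4.04 and 4.54 in unstressed Moneymaker. The Moneymaker arrays were at the bottom of the scale in both treatments, with intensities under 10, which limits what change can be measured there. PI365967 was higher by 3.57 ± 0.14 under salt and 4.61 ± 0.14 unstressed. The mean salt effect was not called with a pseudocount of 1 (−0.44, adjusted p = 0.332) or in the authors' second values (−0.29, adjusted p = 0.0887).

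Of the remaining unannotated probe sets among the 20 largest, Les.3272.1.S1_at differed by 3.78 ± 0.22 under salt and 3.55 ± 0.22 unstressed, and Les.891.1.A1_at by 3.52 ± 0.16 and 3.62 ± 0.16. LesAffx.10650.1.S1_at differed by 3.29 ± 0.26 and 3.46 ± 0.26, and Les.1470.1.A1_at by 3.10 ± 0.13 and 3.23 ± 0.13. LesAffx.55779.1.S1_at stood at 2.92 ± 0.10 and 2.87 ± 0.10, Les.3987.1.S1_at at 2.84 ± 0.07 and 2.82 ± 0.07, and Les.852.1.A1_at at 3.08 ± 0.10 and 2.75 ± 0.10. In these 7 the 2 treatments were at most 0.33 apart, and only Les.891.1.A1_at and Les.852.1.A1_at were called for the mean salt effect, both lower (−0.46 ± 0.11 and −0.54 ± 0.07, limma adjusted p = 0.00419 and 3.62e-05). In the authors' second values Les.3272.1.S1_at (−0.34, adjusted p = 0.000231) and LesAffx.10650.1.S1_at (−0.34, adjusted p = 0.0428) were also called lower.

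Both members with cluster number LesAffx.66301 and both with LesAffx.25244 were among the 20, so these 4 probe sets may report fewer than 4 transcripts. LesAffx.66301.1.S1_at differed by 3.44 ± 0.28 under salt and 4.38 ± 0.28 unstressed, and LesAffx.66301.2.S1_at by 3.10 ± 0.26 and 3.72 ± 0.26. LesAffx.25244.2.S1_at differed by 3.38 ± 0.25 and 4.21 ± 0.25, and LesAffx.25244.1.S1_at by 3.02 ± 0.21 and 3.50 ± 0.21. All 4 had the smaller difference under salt.

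**Figure D2:**
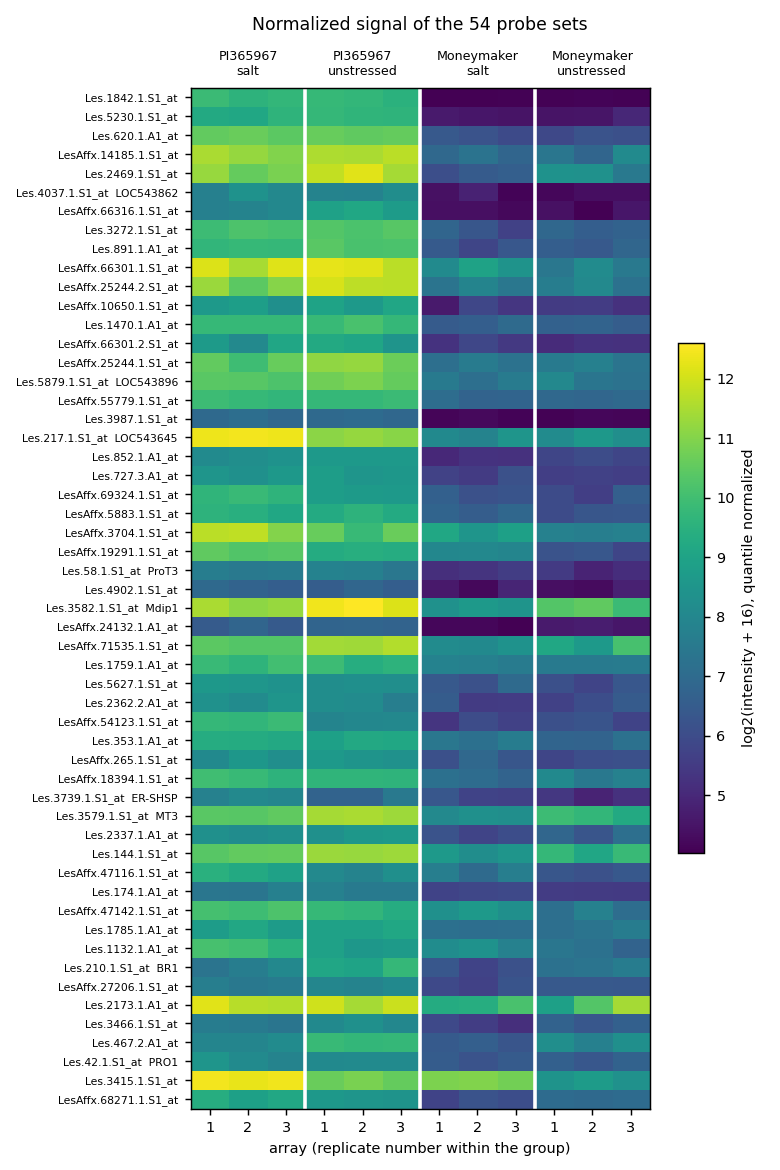
Colour gives log2(intensity + 16) after quantile normalization for the 54 members (from top to bottom by the smaller genotype difference) on 12 arrays (columns, 3 per group). For a given member the 6 PI365967 arrays on the left are brighter than the 6 Moneymaker arrays in 50 members; levels are not comparable between members, since each probe set has its own scale.

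Much of the set was dim in Moneymaker. Dim here means a group mean below the 20th percentile of mean signal over all probe sets, which lies at a log2 signal of 6.57 or about 79.2 intensity units. Moneymaker was dim in both treatments in 22 members (40.7%, against 18.2% of all probe sets), in 1 treatment in 11 and in neither in 21, while no member was dim in a PI365967 group. The rule itself favours low Moneymaker and high PI365967 signals. Over the 22, deposited intensities ran from 63.1 to 1713 with a median of 273 in PI365967, and from 0.225 to 131 with a median of 29.4 in Moneymaker. Folds against such signals are open to background, and no detection calls were used. The 21 members with no dim group had a median smaller difference of 2.14, and the 22 had one of 2.44.

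The 3 members known by a locus number were all among the 20 largest. LOC543862 (Les.4037.1.S1_at) had 7.76, 8.40 and 8.02 in PI365967 under salt and 7.85, 7.84 and 8.24 in unstressed PI365967, against 4.41, 4.85 and 4.12 in Moneymaker under salt and 4.17, 4.35 and 4.33 in unstressed Moneymaker. Its difference was 3.60 ± 0.20 under salt and 3.69 ± 0.20 unstressed, and salt left no called change (0.13 ± 0.14, limma adjusted p = 0.444). It was a steady difference against a dim Moneymaker signal.

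LOC543896 (Les.5879.1.S1_at) had 10.40, 10.36 and 10.20 in PI365967 under salt and 10.73, 10.91 and 10.57 in unstressed PI365967, against 7.56, 7.16 and 7.59 in Moneymaker under salt and 8.03, 7.35 and 7.25 in unstressed Moneymaker. The excess in PI365967 was 2.88 ± 0.19 under salt and 3.19 ± 0.19 unstressed. No Moneymaker group was dim, and the mean salt effect of −0.26 ± 0.14 was not called (limma adjusted p = 0.112). Without replicate 3 of unstressed Moneymaker it was −0.34 and called (adjusted p = 0.0497).

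LOC543645 (Les.217.1.S1_at) showed a larger genotype difference under salt. It had 12.37, 12.46 and 12.38 in PI365967 under salt and 11.11, 11.26 and 11.07 in unstressed PI365967, against 8.11, 7.87 and 8.49 in Moneymaker under salt and 8.18, 8.61 and 8.26 in unstressed Moneymaker. The 3 salt arrays of PI365967 lay above its unstressed arrays, while those of Moneymaker overlapped. PI365967 was higher by 4.25 ± 0.15 under salt (19.0-fold) and by 2.80 ± 0.15 unstressed (6.95-fold). Salt changed it by 1.26 ± 0.15 in PI365967 and by −0.20 ± 0.15 in Moneymaker, with a called mean of 0.53 ± 0.11 (limma adjusted p = 0.00097). Without normalization between arrays the mean was 0.41 and not called (adjusted p = 0.0628).

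ProT3, a member of the tomato proline transporter family, which moves proline and related compatible solutes into cells, had 7.66, 7.48 and 7.58 in PI365967 under salt and 7.82, 7.75 and 7.44 in unstressed PI365967. Moneymaker had 5.19, 5.33 and 5.57 under salt and 5.48, 4.89 and 5.16 unstressed. The genotypes were clearly apart and the treatments overlapped within each. The difference was 2.21 ± 0.15 under salt (4.64-fold) and 2.49 ± 0.15 unstressed (5.63-fold), and the mean salt effect was 0.05 ± 0.11 (limma adjusted p = 0.74), while in the authors' second values it was −0.23 and called (adjusted p = 0.0185). Moneymaker was dim in both treatments.

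Other probe sets of proline genes did not share that difference. ProT1, a second transporter of the family, differed by 0.23 ± 0.08 under salt and 0.14 ± 0.08 unstressed, and ProT2 by −0.30 ± 0.15 and −1.10 ± 0.15. PRO2, the P5CS enzyme of proline synthesis, differed by 0.02 ± 0.08 and −0.17 ± 0.08, and the PRO1 gene of proline synthesis (Les.3629.1.S1_at), dim throughout, by 0.06 ± 0.15 and 0.04 ± 0.15. Of these 5 proline probe sets, 3 were called higher in the mean salt effect, beside 30.1% of all probe sets: ProT1 by 0.86 ± 0.05, ProT2 by 0.43 ± 0.11 and PRO2 by 0.19 ± 0.06 (limma adjusted p = 8.25e-08, 0.0046 and 0.0131).

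MT3, a metallothionein-type gene, belongs to a family of small cysteine-rich proteins that bind metal ions. It had 10.41, 10.36 and 10.52 in PI365967 under salt and 11.44, 11.51 and 11.33 in unstressed PI365967, against 8.07, 8.33 and 8.26 in Moneymaker under salt and 9.90, 9.72 and 9.24 in unstressed Moneymaker. All 4 groups were separate, with PI365967 above Moneymaker and salt below unstressed. The genotypes differed by 2.21 ± 0.14 under salt and by 1.81 ± 0.14 unstressed, and the mean salt effect was −1.20 ± 0.10 (limma adjusted p = 1.15e-06).

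Other metallothionein probe sets differed in the opposite direction or little. MT2 stood at 0.33 ± 0.11 under salt and 0.27 ± 0.11 unstressed. The 4 probe sets assigned to MT4 ran from −7.78 ± 0.13 under salt and −7.92 ± 0.13 unstressed on Les.4426.1.A1_s_at to 0.29 ± 0.09 and 0.06 ± 0.09 on Les.4426.2.S1_s_at, so probe sets of 1 gene disagreed. Those ending in _s_at or _x_at can take signal from related transcripts. Of the 6 metallothionein probe sets, 3 were called lower in the mean salt effect and none higher, beside 33.7% and 30.1% of all probe sets.

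ER-SHSP encodes a small heat shock protein of the endoplasmic reticulum, one of the chaperones that keep damaged proteins from aggregating. It had 7.79, 8.05 and 7.95 in PI365967 under salt and 6.76, 6.76 and 7.50 in unstressed PI365967, against 6.37, 5.77 and 5.67 in Moneymaker under salt and 5.40, 4.87 and 5.25 in unstressed Moneymaker. It was both higher in PI365967 and higher under salt, without overlap between the 4 groups. The genotype difference was 1.99 ± 0.23 under salt and 1.83 ± 0.23 unstressed, and the mean salt effect was 0.84 ± 0.16 (limma adjusted p = 0.000783).

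The other 5 small heat shock probe sets varied in their genotype difference. The vis1 probe set missed the threshold under salt, with 1.29 ± 0.25 under salt and 1.75 ± 0.25 unstressed. HSP21 stood at 0.97 ± 0.15 and 0.68 ± 0.15, HSP17-6 at 0.37 ± 0.15 and 0.01 ± 0.15, MTSHP at −0.19 ± 0.21 and 1.17 ± 0.21, and HSP17.4 at −2.23 ± 0.37 and 0.72 ± 0.37. All 6 small heat shock probe sets were called higher in the mean salt effect, beside 30.1% of all probe sets. ER-SHSP thus shared the direction of the other 5 in the salt response. Of the 6, it was the one whose difference reached 1.5 in both treatments in these values. In the authors' second values vis1 (1.69 under salt and 2.49 unstressed) and HSP21 (1.79 and 2.12) also reached it.

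PRO1 (Les.42.1.S1_at) is the profilin gene LePro1, distinct from the proline gene of the same symbol. Profilins bind actin monomers and take part in shaping the cytoskeleton. Its arrays read 8.50, 8.14 and 7.88 in PI365967 under salt and 8.08, 8.12 and 8.14 in unstressed PI365967, against 6.52, 6.22 and 6.48 in Moneymaker under salt and 6.65, 6.34 and 6.73 in unstressed Moneymaker. The difference was 1.76 ± 0.15 under salt and 1.54 ± 0.15 unstressed, close to the threshold, with a mean salt effect of −0.05 ± 0.11 (limma adjusted p = 0.689).

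Mdip1 and BR1 had the deepest salt falls of the annotated members. Mdip1 had 11.50, 11.14 and 11.29 in PI365967 under salt and 12.41, 12.60 and 12.15 in unstressed PI365967, against 8.35, 8.67 and 8.46 in Moneymaker under salt and 10.32, 10.49 and 9.86 in unstressed Moneymaker. The 4 groups did not overlap. Its genotype difference was 2.82 ± 0.17 under salt and 2.16 ± 0.17 unstressed, and the mean salt effect was −1.40 ± 0.12 (limma adjusted p = 1.21e-06).

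BR1 had 7.31, 7.65 and 8.03 in PI365967 under salt and 9.10, 8.99 and 9.73 in unstressed PI365967, against 6.34, 5.76 and 6.15 in Moneymaker under salt and 7.23, 7.33 and 7.62 in unstressed Moneymaker. Salt-treated PI365967 overlapped unstressed Moneymaker, so the 6 arrays of each genotype were not separate. The genotype difference was 1.58 ± 0.23 under salt and 1.88 ± 0.23 unstressed, and the mean salt effect was −1.46 ± 0.16 (limma adjusted p = 1.1e-05).

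**Figure D3:**
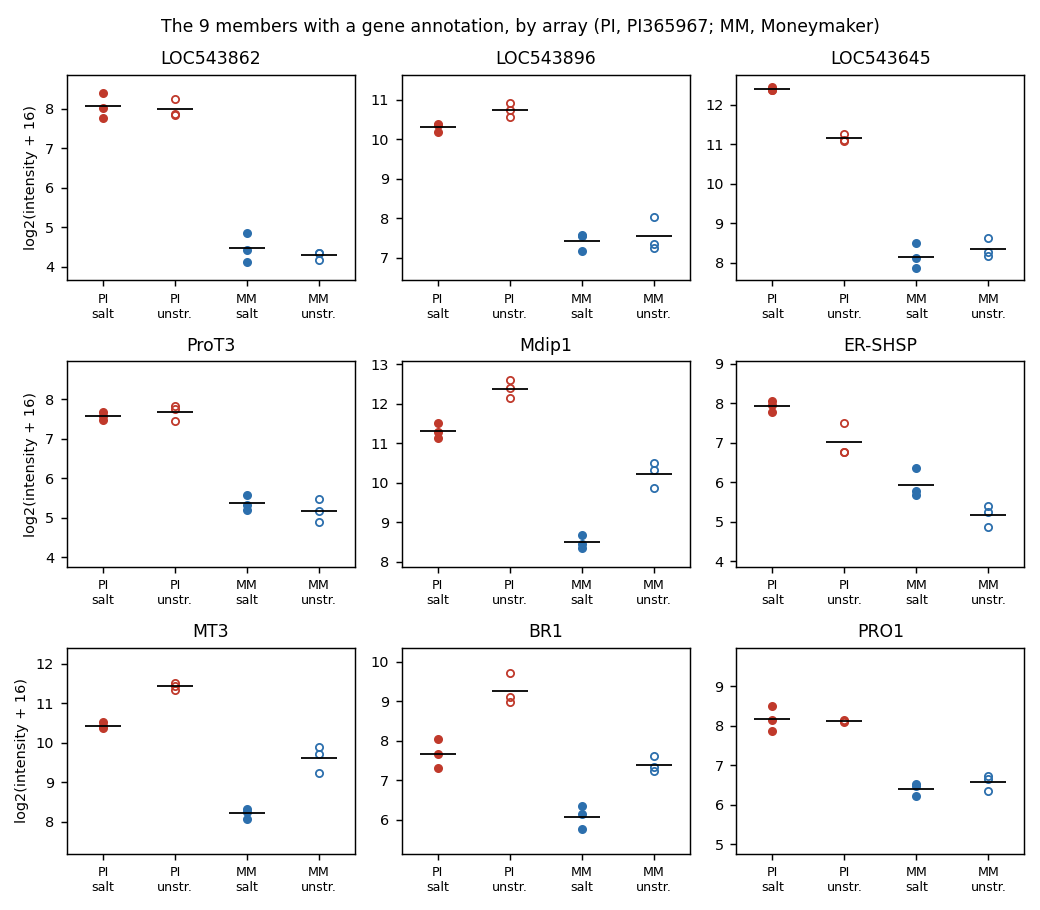
Each panel gives log2(intensity + 16) of 1 annotated member on the 12 arrays, with PI365967 (PI) in red and Moneymaker (MM) in blue, salt as filled and unstressed as open circles, and bars at group means. Genotypes are apart in each treatment, and in BR1 salt-treated PI365967 overlaps unstressed Moneymaker.

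The 20 gene lists made for salt response covered ion transport, antioxidants, defence, abscisic acid, heat shock, transcription factors, hormones, cell wall and photosynthesis among others. Of their 210 entries 2 were members (0.952%). Lists were matched to gene symbols, so only annotated probe sets could enter them, and 9 of the 909 annotated probe sets were members. ProT3 was 1 of 10 probe sets of sugar and solute metabolism, and MT3 was 1 of 12 of nutrient transporters and metal binding. None of the other lists held a member, though 2 lists matched no probe set at all and ER-SHSP was not matched by the heat shock pattern. With 45 of 54 members unannotated, these counts cover a small share of the set.

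The mean salt effect over both genotypes was called higher for 13 members (24.1%) and lower for 17 (31.5%), at a limma adjusted p under 0.05. Over all probe sets 30.1% were called higher and 33.7% lower, so the members were called about as often as any probe set. Without adjustment 30 members had p under 0.05. The median effect was −0.04 over members and −0.02 over all probe sets, and the median size without sign was 0.35 over members and 0.30 over all. A mean change of at least 1 (2-fold) was seen in 11 members (20.4%, against 12.2% of all), 5 higher and 6 lower.

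The largest rise was that of Les.3415.1.S1_at, which had 12.46, 12.33 and 12.42 in PI365967 under salt and 10.63, 10.87 and 10.57 in unstressed PI365967, against 10.92, 10.97 and 10.77 in Moneymaker under salt and 8.43, 8.73 and 8.36 in unstressed Moneymaker. Salt raised it by 2.04 ± 0.08 on average (limma adjusted p = 2.45e-09), so that Moneymaker under salt reached the level of unstressed PI365967. Its genotype difference was 1.52 ± 0.11 under salt and 2.19 ± 0.11 unstressed, but 0.21 and 0.62 in the authors' second values. Of the 2 other probe sets of its cluster number, Les.3415.2.S1_at also rose under salt (2.54 ± 0.08) and Les.3415.3.S1_at fell (−1.23 ± 0.15).

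LesAffx.19291.1.S1_at rose by 1.45 ± 0.09 (limma adjusted p = 6.07e-08). It had 10.50, 10.26 and 10.37 in PI365967 under salt and 9.29, 9.40 and 9.33 in unstressed PI365967, against 8.01, 8.03 and 7.92 in Moneymaker under salt and 6.22, 6.36 and 5.82 in unstressed Moneymaker. All 4 groups were separate, and unstressed PI365967 lay above salt-treated Moneymaker. The genotype difference was 2.39 ± 0.12 under salt and 3.20 ± 0.12 unstressed.

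Further rises of at least 1 were those of LesAffx.47116.1.S1_at (1.15 ± 0.14), LesAffx.3704.1.S1_at (1.12 ± 0.18) and Les.1132.1.A1_at (1.07 ± 0.15), with limma adjusted p from 2.17e-05 to 0.000209. In these 3 the salt effects of the genotypes were alike: 1.14 in PI365967 and 1.17 in Moneymaker for LesAffx.47116.1.S1_at, 1.15 and 1.09 for LesAffx.3704.1.S1_at, and 1.13 and 1.01 for Les.1132.1.A1_at. Smaller called rises among the 10 largest were those of LesAffx.47142.1.S1_at (0.78 ± 0.13), LesAffx.54123.1.S1_at (0.71 ± 0.11) and LesAffx.69324.1.S1_at (0.62 ± 0.15), beside ER-SHSP and LOC543645.

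The deepest fall was that of Les.467.2.A1_at, at −1.69 ± 0.10 (limma adjusted p = 5.46e-08). It had 7.91, 7.94 and 8.16 in PI365967 under salt and 9.79, 9.70 and 9.75 in unstressed PI365967, against 6.45, 6.62 and 6.30 in Moneymaker under salt and 8.27, 7.74 and 8.28 in unstressed Moneymaker. The genotypes differed by 1.55 ± 0.14 under salt and by 1.65 ± 0.14 unstressed. Another probe set with its cluster number, Les.467.1.S1_at, also fell under salt (−1.26 ± 0.07). Its genotype differences were −1.42 ± 0.10 under salt and −2.00 ± 0.10 unstressed. In these values the 2 probe sets shared the salt response and opposed each other in genotype. In the authors' second values both were lower in PI365967. Les.467.2.A1_at stood there at −0.20 under salt and −0.27 unstressed, and Les.467.1.S1_at at −1.44 and −2.20.

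After Les.467.2.A1_at, BR1, Mdip1, Les.2469.1.S1_at and MT3, the falls in order were LesAffx.71535.1.S1_at (−1.10 ± 0.19), Les.144.1.S1_at (−0.96 ± 0.12), Les.3466.1.S1_at (−0.83 ± 0.12), Les.852.1.A1_at and LesAffx.66316.1.S1_at. In LesAffx.71535.1.S1_at the effect was −1.12 in PI365967 and −1.09 in Moneymaker, and its unstressed Moneymaker arrays spread widely, at 9.14, 8.66 and 10.10. Les.144.1.S1_at had effects of −0.82 in PI365967 and −1.09 in Moneymaker, and Les.3466.1.S1_at had −0.64 and −1.02. Their genotype differences were 2.14 and 2.17 for LesAffx.71535.1.S1_at, 2.03 and 1.76 for Les.144.1.S1_at and 1.95 and 1.56 for Les.3466.1.S1_at, under salt and unstressed in that order.

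**Figure D4:**
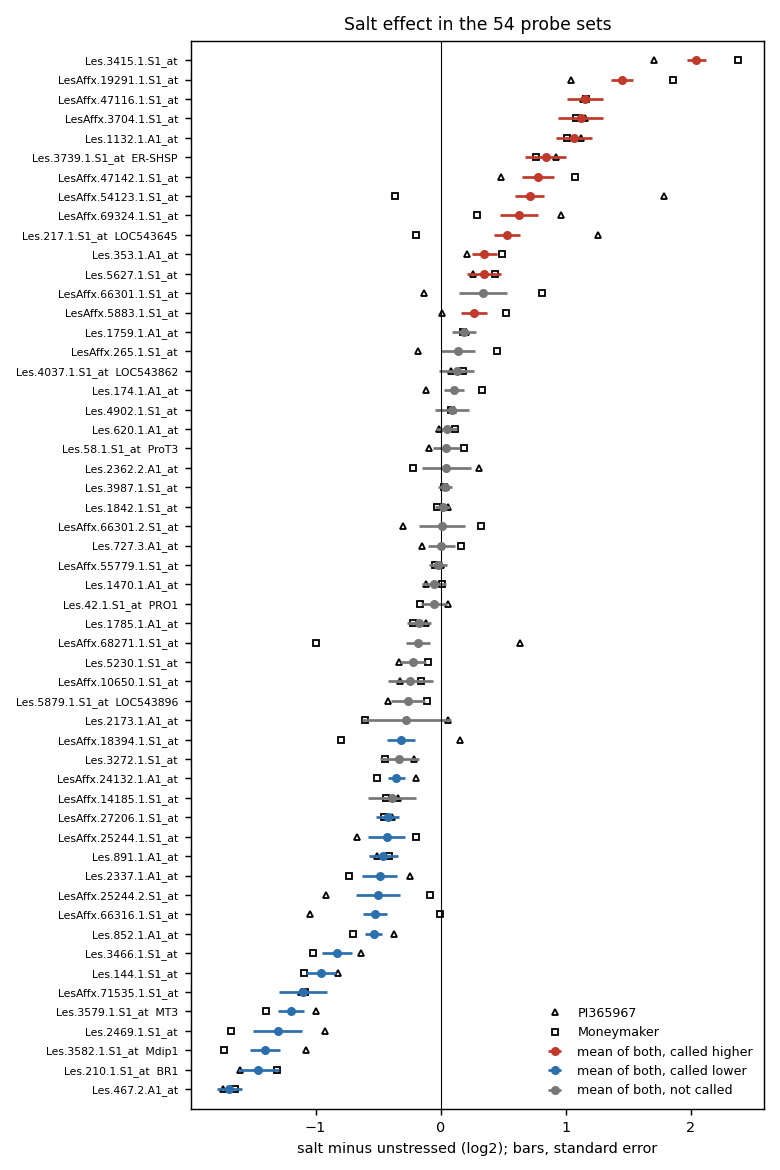
For each of the 54 members the horizontal axis gives the log2 difference salt minus unstressed in PI365967 (triangles), in Moneymaker (squares) and as their mean (circles, with bars of 1 SE), red where the mean was called higher (13), blue where called lower (17) and grey where not called (24). The means ran from −1.69 to 2.04.

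The salt effects of the 2 genotypes had the same sign in 37 of 54 members (68.5%, against 79.1% of all probe sets). Of the 13 called higher, 11 had a positive value in both, and of the 17 called lower, 16 had a negative value in both. A called mean favours equal signs, and among all called probe sets 96.6% had them. Of the 24 members not called, 14 had opposite signs (58.3%, against 51.5% of all probe sets not called), among them Les.1842.1.S1_at, ProT3 and PRO1. How far the salt effect in PI365967 exceeded that in Moneymaker had a median of 0.02 with a median SE of 0.23. It lay within 0.5 of 0 in 36 members (66.7%, against 82.5% of all probe sets), and is the same quantity as the difference between the genotype differences under salt and unstressed, so it is not tested here.

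It was at least 1 in 3 members and at most −1 in 1, the LesAffx.66316.1.S1_at described above. LesAffx.54123.1.S1_at had the largest, 2.15 ± 0.23. It had 9.73, 9.66 and 9.87 in PI365967 under salt and 7.90, 7.99 and 8.02 in unstressed PI365967, against 5.35, 6.01 and 5.69 in Moneymaker under salt and 6.13, 6.25 and 5.76 in unstressed Moneymaker. The PI365967 salt arrays stood well above the rest and the Moneymaker treatments overlapped. PI365967 was higher by 4.07 ± 0.16 under salt (16.8-fold) and by 1.92 ± 0.16 unstressed (3.79-fold).

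LesAffx.68271.1.S1_at moved in opposite directions. It had 9.37, 8.90 and 9.17 in PI365967 under salt and 8.58, 8.51 and 8.44 in unstressed PI365967, against 5.74, 6.22 and 6.06 in Moneymaker under salt and 7.03, 6.96 and 7.03 in unstressed Moneymaker. The salt effect was 0.64 ± 0.13 in PI365967 and −1.00 ± 0.13 in Moneymaker, with the mean of −0.18 ± 0.09 not called (limma adjusted p = 0.115). That mean was called, at −0.24, without replicate 1 of salt-treated PI365967 or replicate 2 of salt-treated Moneymaker (adjusted p = 0.0434 and 0.0436). The genotype difference was 3.14 ± 0.13 under salt and 1.51 ± 0.13 unstressed, the value nearest the threshold of any member. The third was LOC543645, at 1.45.

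Inside the threshold the nearest members after LesAffx.68271.1.S1_at were Les.3415.1.S1_at (smaller difference 1.52) and PRO1 (1.54). Just outside lay LesAffx.62385.1.S1_at (1.87 under salt and 1.499 unstressed), Les.4233.1.S1_at (1.71 and 1.49) and LesAffx.33344.1.S1_at (1.68 and 1.49). The gap between the nearest probe sets on each side was smaller than the SE of their differences.

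The 15 members not named by these rules had genotype differences from 1.63 to 2.79 under salt and from 1.56 to 3.15 unstressed. Their mean salt effects ran from −0.49 to 0.35. The naming rule had taken out the 10 largest called rises and falls, which narrows this range. Of the 15, 3 were called higher, 4 lower and 8 not called, beside 30.1% higher and 33.7% lower over all probe sets. Moneymaker was dim in both treatments in 8 of the 15. One, Les.2173.1.A1_at, singled out after its values were seen, had 11.98, 11.43 and 11.92 in unstressed PI365967, against 8.90, 10.31 and 11.44 in unstressed Moneymaker, so that 1 Moneymaker array overlapped. Its SE of 0.50 was the widest among the members, and its differences were 2.22 under salt and 1.56 unstressed.

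Identifiers give a partial view of how a probe set was built. None of the 54 members ended in _s_at, _x_at or _a_at, the endings of probe sets that can take signal from several transcripts, against 2.74% of all probe sets. The A1 form of identifier, beside the usual S1, was held by 15 members (27.8%, against 23.5%). Of 12 non-member probe sets that shared a cluster number with 10 of the members, 1 reached 1.5 in either treatment (Les.3415.3.S1_at, 1.91 under salt). Another 8 lay between −0.75 and 0.75 in both, while Les.467.1.S1_at was lower in PI365967 as described above. Of the 8, Les.4902.1.A1_at, LesAffx.18394.1.A1_at, LesAffx.24132.1.S1_at and LesAffx.69324.2.S1_at were dim in every group, which limits what difference they could show. The 2 mates of Les.727.3.A1_at, Les.727.1.S1_at and Les.727.2.S1_at, differed by 1.23 and 1.04 under salt and by 1.10 and 1.06 unstressed. Since probe sets outside the set are by rule those short of the threshold, these counts do not measure how often probe sets of 1 cluster number go together. In the clusters LesAffx.66301 and LesAffx.25244, both probe sets were members.

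The authors also deposited log2 values of the same arrays made in another way, in 1 table per genotype, and their method is not given in the sources used here. Each table may have been normalized on its own, so differences between genotypes set across them are a comparison of levels between tables. Their median over the 8074 shared probe sets was 0.02 under salt and 0.01 unstressed. Of the 54 members 50 were listed there, and 30 of these again differed by at least 1.5 in both treatments, 42 by at least 1. The median smaller difference was 1.86.

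Les.1842.1.S1_at was even further apart in these values, at 6.93 under salt and 6.70 unstressed, as was LesAffx.66316.1.S1_at, at 4.26 and 5.69. LOC543645 (4.24 and 2.61), LOC543862 (3.47 and 4.00), LesAffx.54123.1.S1_at (4.05 and 1.83), Mdip1 (2.68 and 1.97), ProT3 (2.39 and 2.21) and ER-SHSP (1.71 and 2.05) kept their differences. Those of MT3 (1.80 and 1.33), PRO1 (1.71 and 1.40), Les.891.1.A1_at (1.79 and 1.22), Les.144.1.S1_at (1.84 and 1.32) and LesAffx.68271.1.S1_at (3.31 and 1.31) were under the threshold unstressed. In all, 7 of the 9 annotated members passed it again.

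For 7 members the second values differed by less than 0.5 in both treatments. Les.3272.1.S1_at stood at 0.39 under salt and 0.21 unstressed, where the first values had given 3.78 and 3.55. Les.1470.1.A1_at stood at 0.10 and 0.15, LesAffx.55779.1.S1_at at 0.19 and −0.02, and Les.467.2.A1_at at −0.20 and −0.27. The remaining 3, taken up after their values were seen, were Les.1759.1.A1_at (0.47 and 0.45), Les.2337.1.A1_at (0.30 and 0.41) and Les.2362.2.A1_at (0.24 and 0.13). Les.5230.1.S1_at kept 2.02 and 1.97 of its 4.76 and 4.99, and Les.620.1.A1_at 1.56 and 1.12 of its 4.35 and 4.49.

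The disagreement was uneven between identifier forms. Of the 13 listed members with an A1 identifier 3 passed the threshold in both treatments and 5 were under 0.5, while of the 37 with S1 27 passed. Of the listed members, 14 of 18 that were dim in both Moneymaker groups passed again, 4 of 11 that were dim in 1 and 12 of 21 that were dim in neither. The part of dim signals in the disagreement, and which of the value sets is nearer the transcript amounts, was not tested.

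**Figure D5:**
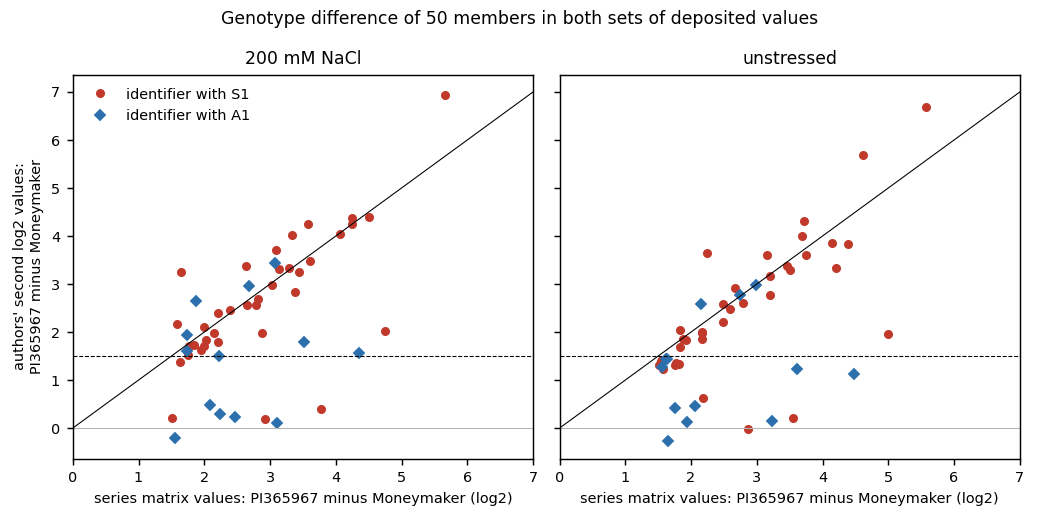
For the 50 members present in both sets of deposited values, the horizontal axis gives the log2 difference PI365967 minus Moneymaker in the first values and the vertical axis that in the authors' second values, under salt on the left and unstressed on the right. Red circles are S1 and blue diamonds A1 identifiers, the diagonal marks equality and the dashed line 1.5; points near 0 on the vertical axis are members whose difference was absent from the second values.

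The plants were sampled whole, and a shift in tissue shares would move transcripts together. Fewer cells of a type and less RNA per cell cannot be told apart in such samples. The 5 shoot markers (CAB4, CAB5, CAB6A, PETE and PsbQ, genes of the photosynthetic apparatus) were all called higher in PI365967 under salt and 3 of them unstressed, beside 26.6% and 19.2% of all probe sets. Their summed intensity was 36210 to 37931 in PI365967 under salt and 46632 to 48433 in unstressed PI365967, against 22376 to 25190 in Moneymaker under salt and 36382 to 42999 in unstressed Moneymaker.

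Of all probe sets, 26.6% were called higher and 22.5% lower in PI365967 under salt, and 19.2% higher and 17.7% lower unstressed. The 7 root-leaning markers were PT1, PT2, AMT1-2, NRAMP1, TPX2, TPx1 and RSI-1. Of these 7, 3 were called higher and 1 lower in PI365967 under salt, and 1 higher and 2 lower unstressed. Their summed intensity was 14015 to 14819 in PI365967 under salt and 18213 to 19052 in unstressed PI365967, against 16049 to 16769 in Moneymaker under salt and 20846 to 21532 in unstressed Moneymaker. PT1 and TPx1 weigh most in this sum, with mean log2 signals of 12.7 and 12.5 over all arrays, against 10.7 for RSI-1, the next. NRAMP1 was dim in every group but unstressed Moneymaker, which limits what difference it could show. The median difference of the shoot markers was 0.67 under salt and 0.28 unstressed and that of the root-leaning ones 0.24 and −0.32. Single markers reached the size of the members' differences under salt, with TPX2 at 1.70 and AMT1-2 at 1.59 (−0.79 and 0.49 unstressed), and CAB5 at 1.40 and PETE at 1.34 were near it (0.92 and 0.51 unstressed). The part of tissue shares in the members' differences was not tested.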

How the data were processed

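Total RNA of whole plants was labelled with biotin and hybridised to 12 Affymetrix tomato arrays, 3 for each of 4 groups taken from the labels. The main values are the authors' deposited intensity values, 1 linear intensity per probe set and array, and how probes were corrected and summarised is not given in the sources used here. The authors' second deposited log2 values, 1 table per genotype for part of the probe sets, served as an alternative.

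Of 10209 probe sets, 108 array controls were left out. Intensities were transformed to log2(value + 16) and quantile normalized. Group means were fitted without covariates with limma 3.58.1 in R 4.3.3 (lmFit, eBayes; 8 residual and 3.11 prior degrees of freedom). The mean salt effect was tested two-sided, with Benjamini-Hochberg adjustment over 10101 probe sets and a threshold of 0.05. The procedure was tested on simulated data, in which far fewer probe sets changed than in these data. The labels do not say that a replicate number marks a shared batch. Deviations of same-numbered arrays from their group means correlated at 0.12 to 0.16 in all 3 pairs of unstressed PI365967 with unstressed Moneymaker (other pairs of these groups −0.13 to 0.01). Between other groups, pairs of arrays with different numbers reached 0.15. Whether the numbers mark a pairing was not tested. In the other 5 combinations of groups not every same-numbered pair was over 0.1 (−0.13 to 0.11). Replicates were separate pools of plants. Their number limits the precision, with a median SE of 0.17 for a member's genotype difference and 0.12 for its mean salt effect.

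The members, gene lists and markers were chosen with earlier results of these data known, and the families compared with ProT3, MT3 and ER-SHSP after their values were seen. Named were the 20 members with the largest smaller genotype difference, all with a gene name, the 10 largest called rises and falls under salt, the 3 nearest probe sets on each side of the threshold, members of a gene list and other probe sets of a named gene, which made 39 members. Gene symbols came from the platform annotation, and all 9 gene IDs of annotated members were found in the RefSeq table. No sequence or coordinate was used here.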

Additional observations from a re-analysis of the deposited data

Results flagged for a closer look

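LesAffx.68271.1.S1_at stood out because salt moved it in opposite directions in the 2 genotypes. All 3 salt arrays of PI365967 lay above the 3 unstressed ones, and all 3 salt arrays of Moneymaker lay below the 3 unstressed ones. The salt effect was 0.64 in PI365967 and −1.00 in Moneymaker, a difference of 1.63. The difference was not tested, because the same values chose the probe set as a member. In the authors' second values the salt effect was 0.80 in PI365967 and −1.19 in Moneymaker.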

How the results depend on the processing

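The number of members depended on the scale and threshold more than on the arrays. It was 34 with a pseudocount of 64, 166 at a threshold of 1 and 31 at a threshold of 2. With a pseudocount of 1 it was 79, with median centring 53, without normalization between arrays 45 and without dim probe sets 47. Keeping 1 probe set for each gene, or dropping identifiers that end in _x_at or _s_at, gave 54. Leaving out 1 array gave 52 to 60, of which 50 to 54 were among the members. By the same rule 40 probe sets passed in the authors' second values, an alternative chosen after seeing the data, and 30 of these were members. Salt calls among members ran from 9 to 16 higher and from 15 to 21 lower over the alternatives, and from 11 to 13 higher and 15 to 18 lower without 1 array. Of the 30 called members 21 kept the call under all 20 settings and 25 without any 1 array. Les.5627.1.S1_at lost its call in 12 settings and LesAffx.5883.1.S1_at in 11. Leaving out 1 of 9 arrays ended the call of Les.5627.1.S1_at (0.23 to 0.37), 1 of 7 that of LesAffx.5883.1.S1_at (0.21 to 0.26), 1 of 5 that of LesAffx.25244.2.S1_at (−0.47 to −0.38), and 1 of 4 each those of LesAffx.25244.1.S1_at (−0.39 to −0.38) and LesAffx.18394.1.S1_at (−0.31 to −0.24). In the authors' second values the mean salt effect of ProT3 was −0.23 (limma adjusted p = 0.0185) and that of Les.727.3.A1_at was −0.19 (adjusted p = 0.0243), both opposite in sign to uncalled values near 0. The cause was not tested. With the replicate number as a block 12 members were called higher and 17 lower. On the 6 unstressed arrays each replicate number occurs once per genotype, so the block can move only the SE of a genotype difference. Added after seeing the data, it gave a median SE of 0.13 over members, against 0.15 without it. Background in dim Moneymaker signals and 3 arrays per group limit what the folds can show.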

Other observations

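The 4 probe sets of the clusters LesAffx.66301 and LesAffx.25244, taken up after their values were seen, varied together between replicate arrays as well as between genotypes. In all 4, replicate 2 was the lowest of the PI365967 salt arrays, at 11.47 against 12.17 and 12.18 in LesAffx.66301.1.S1_at and at 10.45 against 11.32 and 11.03 in LesAffx.25244.2.S1_at. Replicate 3 was the lowest of the unstressed PI365967 arrays in all 4, and replicate 2 was the highest in Moneymaker both under salt and unstressed.

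By the rule applied to the authors' second values, 10 probe sets passed that are not members. HSP21, a chloroplast small heat shock protein, differed there by 1.79 under salt and 2.12 unstressed, against 0.97 and 0.68 in the first values, and vis1 by 1.69 and 2.49, against 1.29 and 1.75. Named after their values were seen, Les.953.2.A1_at had 1.63 and 1.57 in the second values and −1.17 and −2.02 in the first, and LesAffx.64703.1.A1_at had 1.84 and 2.81 in the second and 0.16 and 0.15 in the first.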
